A study of Mus musculus with 4 samples.

Results

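The genes described here are the Wnt ligands and the receptors, co-receptors, secreted modulators, axins and transcription factors of their pathway. They were taken by a pattern of gene symbols, which gave 55 of the 19938 genes with a single symbol on the array. The pattern uses no measured value, but it was chosen with earlier results of these data known. The 55 are 19 Wnt ligands, 4 R-spondins, 10 frizzled receptors, 7 co-receptors and other receptors, 9 secreted inhibitors, 2 axins, 3 transcription factors and Fzd10os, a non-coding transcript next to Fzd10 that the pattern also catches. Of these genes, 54 had a single probe set and Wnt4 had another, 56 in all. Tcf7 is not analysed here.

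RNA came from bone marrow cells sorted as CD45- CD31- Ter119- Nes-GFP+ and was hybridised to Affymetrix MoGene 1.0 ST arrays. All hosts were Nes-gfp mice on a C57BL/6 background, in which the nestin promoter drives the green fluorescent protein, and the cells were taken 10 weeks after a marrow transplant. In the MPN group (myeloproliferative neoplasm, n = 3) the transplant was Mx1-cre;JAK2-V617F marrow, in which an interferon-inducible Cre is combined with the mutant JAK2, and the labelled genotype is Nes-gfp;Mx1-cre;JAK2-V617F. In the control (n = 1) it was control marrow, with the labelled genotype Nes-gfp. The labels name each sample as a mouse and give no age or sex.

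Wnt proteins are secreted, lipid-modified signals. They bind a frizzled receptor together with a co-receptor, Lrp5 or Lrp6, and this stops the axin complex from destroying beta-catenin, which then enters the nucleus and acts with the Tcf and Lef transcription factors. R-spondins are secreted too. They bind Lgr4, Lgr5 or Lgr6 and keep frizzled receptors at the cell surface. Wif1 and most Sfrp and Dkk proteins block ligands or co-receptors outside the cell. In marrow stroma the pathway is best known for driving bone formation and for its part in the support of blood stem cells.

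Of the 55 genes, 47 lay within 1 log2 unit of the control in the group mean. Tcf7l2, the R-spondin genes Rspo2 and Rspo3, their receptor gene Lgr4 and the inhibitor genes Wif1 and Sfrp1 lay at least 2-fold under the control mouse in each of the 3 MPN mice. Those 6 genes are 10.9% of the 55, and 5.78% of all genes met the same rule. By that rule 0 members were 2-fold higher, against 1.13% of all genes. The ligands themselves differed little, since all 19 lay within 1 log2 unit of the control in the group mean. No member passed limma's test after Benjamini-Hochberg adjustment over all genes (0 of 55, and 0% of all genes). The smallest adjusted p among the members was 0.0871. At an unadjusted p under 0.05 limma placed 7 members lower (12.7%, against 8.63% of all genes) and 3 higher (5.45%, against 3.97%). The count of 3 was 1 without MPN mouse 1 or without MPN mouse 2, 7 without MPN mouse 3, and 0 once genes under background were left out. Over all 19938 genes that count moved too, from 791 to 424, 484 and 1791 without MPN mouse 1, 2 and 3. It was 351 among the 11966 genes above background.

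Some limits bear on every value below. With a single control, the spread is that of the 3 MPN mice (2 residual degrees of freedom), and the control is assumed to vary as they do. A background limit of 5.21 was taken from chemosensory receptor genes, and 16 of the 55 members lay under it in both groups. Of these 16, 13 were higher on all 3 MPN arrays. The chemosensory receptor genes did likewise, with 850 of 1194 higher on all 3 and a median log2 difference of 0.254. The median difference was 0.205 over the 55 members and 0.179 over all genes. Per array, the members' median difference from the control was 0.30, 0.27 and 0.08 for MPN mice 1, 2 and 3. Probe sets differ in affinity, so the log2 level of one gene is not set against that of another.

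**Figure D1:**
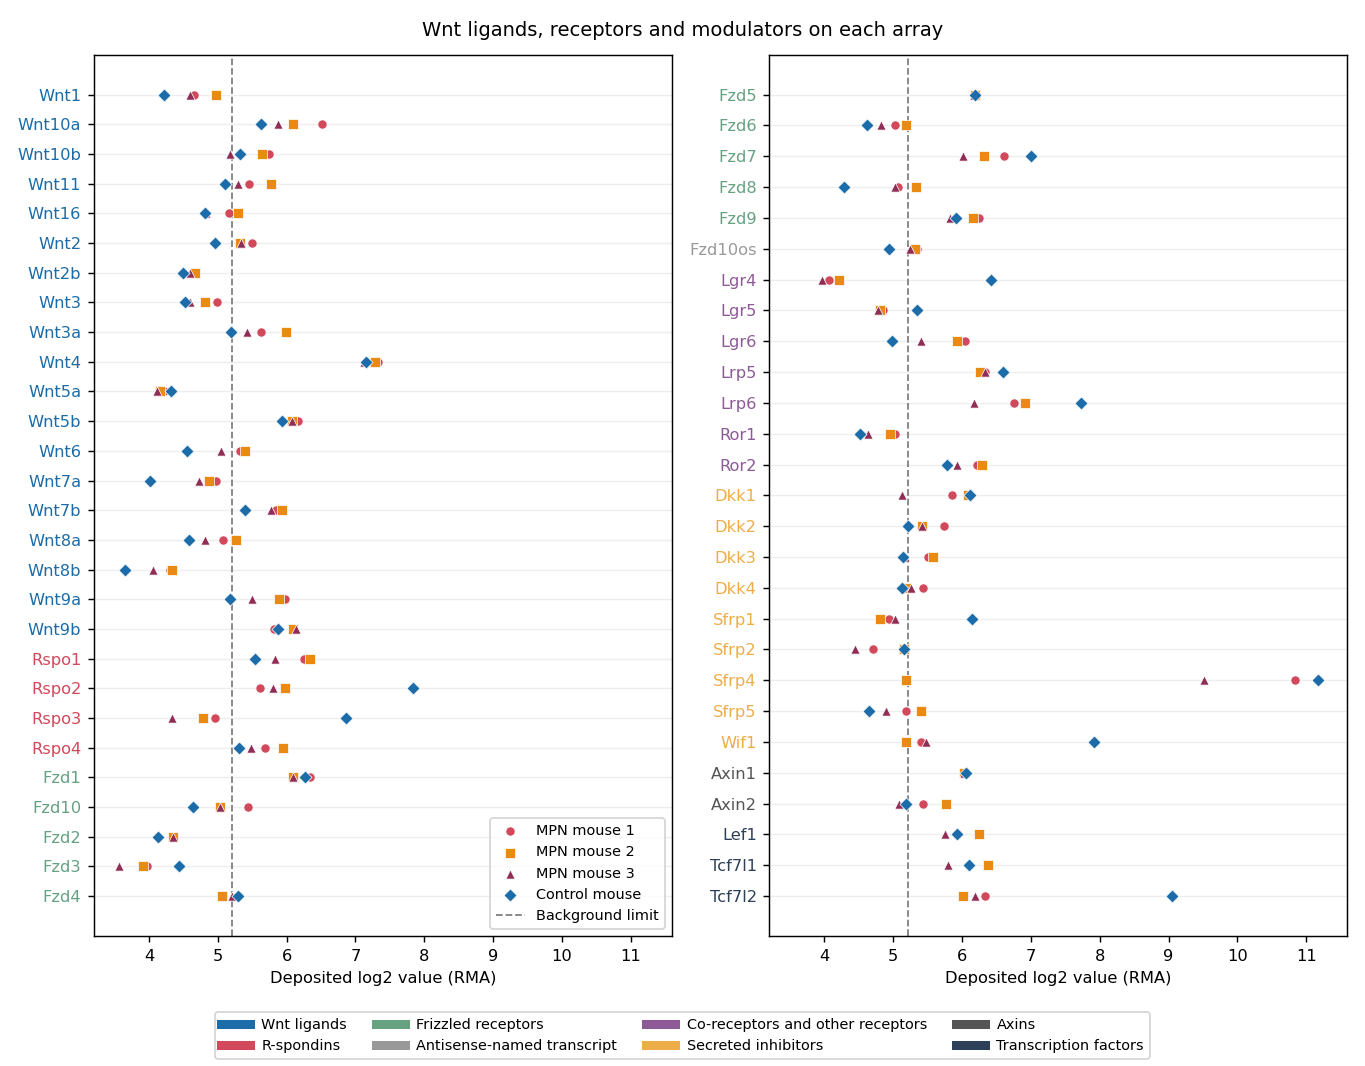
Deposited log2 value (horizontal axis) of each of the 55 genes on the 4 arrays, with 1 marker per mouse, gene names coloured by role and the background limit of 5.21 as a dashed line. The control diamond stands apart to the right for Tcf7l2, Wif1, Lgr4, Rspo2, Rspo3 and Sfrp1, and for Sfrp4 MPN mouse 2 stands apart to the left at 5.18.

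The arrays differed in more than the Wnt genes. Of 16 mesenchymal stromal markers, 14 were at least 2-fold lower on each MPN array, and their mean log2 level was 5.70 to 6.32 in the MPN mice and 9.31 in the control. Of these 16, 11 lay above the background limit in MPN and 15 in the control, and Nes itself was under it in both groups (4.25 ± 0.32, SD, n = 3, against 4.26). Of 9 osteoblast lineage genes, 8 were 2-fold lower (6.27 to 6.57 against 8.90). Of 12 pan-leukocyte genes, 7 were 2-fold higher on each MPN array (mean level 8.11 to 8.72 against 6.10). Ptprc, the CD45 gene that the sort selects against, was at 10.16, 9.46 and 10.40 against 7.07, so the markers of the MPN arrays go against the labelled cell type. Of 15 neutrophil genes, 12 were 2-fold higher (9.56 to 10.76 against 7.35). The control array was not free of such signal. There, 10 of the 12 pan-leukocyte and 12 of the 15 neutrophil genes lay above the background limit. Eif2s3y, Kdm5d and Uty, genes of the Y chromosome, were above background on the control array alone, where Xist was at 3.3 against 8.37 to 9.31 on the MPN arrays. The sex that these genes point to, and the transplant, cannot be told apart in this design. In sorted bulk RNA, fewer cells of a type and less RNA per cell cannot be told apart either. The part of cell content in the differences below was not tested.

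The promoters of 3 of the 6 lower genes are shown, those of Tcf7l2, Wif1 and Lgr4, because the promoter table used here was matched for these 3 and not for Rspo2, Rspo3 and Sfrp1. Each window runs from 250 bases before to 50 bases after a RefSeq start on build GRCm38.p6, and all 4 windows lie on the plus strand. Tcf7l2 has 2 such starts, at chr19:55741560-55741859 and chr19:55895071-55895370, Wif1 has chr10:121033754-121034053 and Lgr4 has chr2:109917397-109917696. Capitals mark a match to a TCF/LEF word.
Tcf7l2 upstream start: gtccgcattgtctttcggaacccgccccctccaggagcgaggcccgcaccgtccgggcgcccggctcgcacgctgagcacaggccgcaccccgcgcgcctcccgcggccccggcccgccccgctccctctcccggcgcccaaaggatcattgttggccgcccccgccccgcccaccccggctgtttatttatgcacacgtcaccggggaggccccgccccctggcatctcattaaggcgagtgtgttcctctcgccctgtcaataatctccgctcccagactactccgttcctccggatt
Tcf7l2 downstream start: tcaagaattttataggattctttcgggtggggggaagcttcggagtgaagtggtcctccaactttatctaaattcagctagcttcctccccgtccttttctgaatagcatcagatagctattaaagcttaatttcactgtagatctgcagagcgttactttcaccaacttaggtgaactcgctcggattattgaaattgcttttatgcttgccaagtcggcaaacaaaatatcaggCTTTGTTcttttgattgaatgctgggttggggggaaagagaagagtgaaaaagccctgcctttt
Wif1: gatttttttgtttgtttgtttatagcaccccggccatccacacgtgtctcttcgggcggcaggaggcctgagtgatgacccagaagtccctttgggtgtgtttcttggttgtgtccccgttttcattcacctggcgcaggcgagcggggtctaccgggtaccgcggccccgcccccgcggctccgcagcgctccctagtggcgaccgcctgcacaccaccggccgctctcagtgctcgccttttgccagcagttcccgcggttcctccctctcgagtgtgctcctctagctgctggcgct
Lgr4: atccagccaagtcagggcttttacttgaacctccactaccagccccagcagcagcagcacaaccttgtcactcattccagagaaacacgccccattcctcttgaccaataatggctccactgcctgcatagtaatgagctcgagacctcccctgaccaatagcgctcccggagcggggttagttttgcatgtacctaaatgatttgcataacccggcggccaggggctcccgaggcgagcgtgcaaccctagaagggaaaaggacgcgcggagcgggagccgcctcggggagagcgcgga

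The words searched were CTTTGAA or CTTTGAT or CTTTGTA or CTTTGTT for TCF/LEF, and TTCNNNGAA for STAT factors, each on both strands. The downstream Tcf7l2 window held CTTTGTT on the plus strand, 14 bases before the start, and the other 3 windows held neither word. Over the 36 members found in the RefSeq promoter table, 7 of 43 windows (16.3%) held a TCF/LEF word, against 16.9% of all 32851 windows. A STAT word was in 1 of the 43 (2.33%), against 8.30% of all windows. Member windows were richer in G and C, with a median of 67.3% against 52.7%. The windows of Wif1 (63.0%), Lgr4 (58.3%) and the upstream start of Tcf7l2 (70.0%) lay above the latter value, and the downstream start of Tcf7l2 (42.0%) below it. A match is a word in a window and not a measured site.

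Among the 19 Wnt ligands, no gene was 2-fold higher or lower on each MPN array. The log2 differences ran from -0.16 for Wnt5a, a ligand of the beta-catenin-independent branch, to 0.85 for Wnt7a. Of the 19, 18 had a difference above 0, and 15 were above the control on each MPN array. As deposited, 29 of the 55 members (52.7%) and 46.8% of all genes met that rule. After the shift of the arrays to one median of the chemosensory receptor genes, which moved the median of all genes from 0.179 to -0.0778, 11 of the 19 were above on each array and 3 below, with a median of 0.167. After that shift 19 of the 55 members were above on each array and 23 below, beside 4497 and 7671 of the 19938 genes. Only 6 of the 19 lay above the background limit in both groups.

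Wnt4, a ligand known from kidney and gonad development and from bone, is given on every array because its probe set had the highest mean value among the ligands, which is a rule for naming and no order of expression. It measured 7.33, 7.28 and 7.12 in MPN mice 1, 2 and 3, and 7.15 in the control mouse. The groups overlapped, and the difference of 0.10 (SE 0.17) was within the spread of the MPN mice. Its other probe set was at 5.15, 5.66 and 5.17 against 4.94. Both probe sets had a small difference above 0, and the Wnt4 difference was -0.16 after the arrays were shifted to one median of the chemosensory receptor genes.

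Wnt6 measured 5.33, 5.39 and 5.05 in the MPN mice against 4.56. All 3 MPN mice were above the control, and the control lay under background. The difference was 0.70 (SE 0.22) with an unadjusted limma p of 0.0409 and an adjusted p of 0.372. Wnt7a (0.85, SE 0.18) had an unadjusted p of 0.0137 and was under background in both groups. The remaining ligands Wnt1, Wnt2, Wnt2b, Wnt3, Wnt3a, Wnt5b, Wnt7b, Wnt8a, Wnt8b, Wnt9a, Wnt9b, Wnt10a, Wnt10b, Wnt11 and Wnt16 had differences between 0.14 and 0.62. Wnt10b, which favours bone over fat in marrow stroma, was at 5.74, 5.65 and 5.18 against 5.32, and its groups overlapped. Of the 19 ligands, 8 stand in 4 neighbouring pairs in the mouse genome. The differences were 0.70 and 0.54 for Wnt6 and Wnt10a, and 0.49 and 0.62 for Wnt3a and Wnt9a. In the other pairs, Wnt9b with Wnt3 and Wnt10b with Wnt1, Wnt9b and Wnt10b turned to -0.11 and -0.05 after the receptor shift.

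The R-spondins split into a lower and a higher pair. Rspo2 was 4.09-fold lower in MPN and Rspo3 was lower too, to values under background, while Rspo1 and Rspo4 were slightly higher on every MPN array. R-spondins raise the response of a cell to Wnt ligands.

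Rspo2 measured 5.61, 5.98 and 5.81 in MPN mice 1, 2 and 3, and 7.83 in the control mouse. The MPN mice lay together, and each was at least 1.85 below the control. The difference was -2.03 (SE 0.22), with an unadjusted limma p of 0.0016 and an adjusted p of 0.114. Rspo3, a factor also known from vessels and bone, was at 4.96, 4.79 and 4.33 against 6.86. All 3 MPN values lay under the background limit, and the difference was -2.17 (SE 0.32, adjusted p = 0.162).

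Rspo1 measured 6.26, 6.34 and 5.83 in the MPN mice against 5.54. Its difference was 0.60 (SE 0.29) and that of Rspo4 0.40 (SE 0.25), with adjusted p = 0.449 and 0.504. Neither passed the test, and the differences were 0.34 for Rspo1 and 0.14 for Rspo4 after the chemosensory receptor shift. Whether the 2 pairs differ from each other was not tested.

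Of the R-spondin receptors, Lgr4 was lower as well. It measured 4.07, 4.21 and 3.96 in MPN mice 1, 2 and 3, and 6.43 in the control mouse. The MPN values lay close together and under background, and the control lay above it. The difference of the deposited values was -2.35 (SE 0.19), a size limited by background in MPN, with an unadjusted limma p of 0.000564 and an adjusted p of 0.0871. Lgr4 passed at adjusted p = 0.048 after cyclic loess, 0.046 after the arrays were shifted to one median of the chemosensory receptor genes, and 0.0352 with limma's trended and robust prior. Over the other alternatives its adjusted p ran from 0.0764 to 0.454.

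Lgr5, a stem cell marker of epithelia, was at 4.85, 4.81 and 4.78 against 5.35, a small gap across the background limit (-0.54, SE 0.15, unadjusted p = 0.0293, adjusted p = 0.33 with limma). Lgr6 went the other way, at 6.04, 5.92 and 5.40 against 4.99, with a difference of 0.80 (SE 0.33, adjusted p = 0.435). All 3 MPN values of Lgr6 were above the control.

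The frizzled receptor genes, which encode the Wnt-binding receptors, differed by less than 1 log2 unit in all 10 cases. Their median difference was 0.08, with 5 above 0 and 5 below, and -0.17 after the chemosensory receptor shift. Only 4 of the 10 lay above the background limit in both groups, which limits the reading of the small differences of the rest. Fzd7, named by the same rule, measured 6.61, 6.32 and 6.01 in MPN mice 1, 2 and 3, and 7.0 in the control mouse. Each MPN mouse was below the control, and the difference of -0.69 (SE 0.30) did not pass (adjusted p = 0.442). Fzd8 had the highest difference of the 55 deposited values, 0.86 (SE 0.21, unadjusted p = 0.0194), from 5.07, 5.33 and 5.03 against 4.29. Both group means of Fzd8 were under background.

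The other frizzled genes were Fzd1, Fzd2, Fzd3, Fzd4, Fzd5, Fzd6, Fzd9 and Fzd10, with differences from -0.62 (Fzd3) to 0.53 (Fzd10). Fzd1 at 6.34, 6.09 and 6.10 against 6.27, Fzd5 at 6.19, 6.19 and 6.18 against 6.19, and Fzd9 were above background in both groups and overlapped between them. Fzd10os and Fzd10, which lie side by side, were both slightly higher in MPN. Fzd10os was at 5.35, 5.32 and 5.24 against 4.93.

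Of the co-receptors, Lrp6 was the lower one. It measured 6.76, 6.91 and 6.18 in MPN mice 1, 2 and 3, and 7.73 in the control mouse, above background on every array. Each MPN mouse was below the control, by 0.82 at the least, which left Lrp6 just outside the 2-fold rule, while Sfrp1 with a least distance of 1.12 was just inside it. The difference was -1.11 (SE 0.37, unadjusted p = 0.0504, adjusted p = 0.396 with limma). Lrp5, the co-receptor whose variants set bone mass, was at 6.33, 6.26 and 6.33 against 6.59, a difference of -0.28 (SE 0.15). Ror1 and Ror2, receptor kinases for Wnt5a, were higher by 0.36 each (SE 0.24 and 0.23), and Ror1 was under background in both groups. After the chemosensory receptor shift both differences were 0.10.

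**Figure D2:**
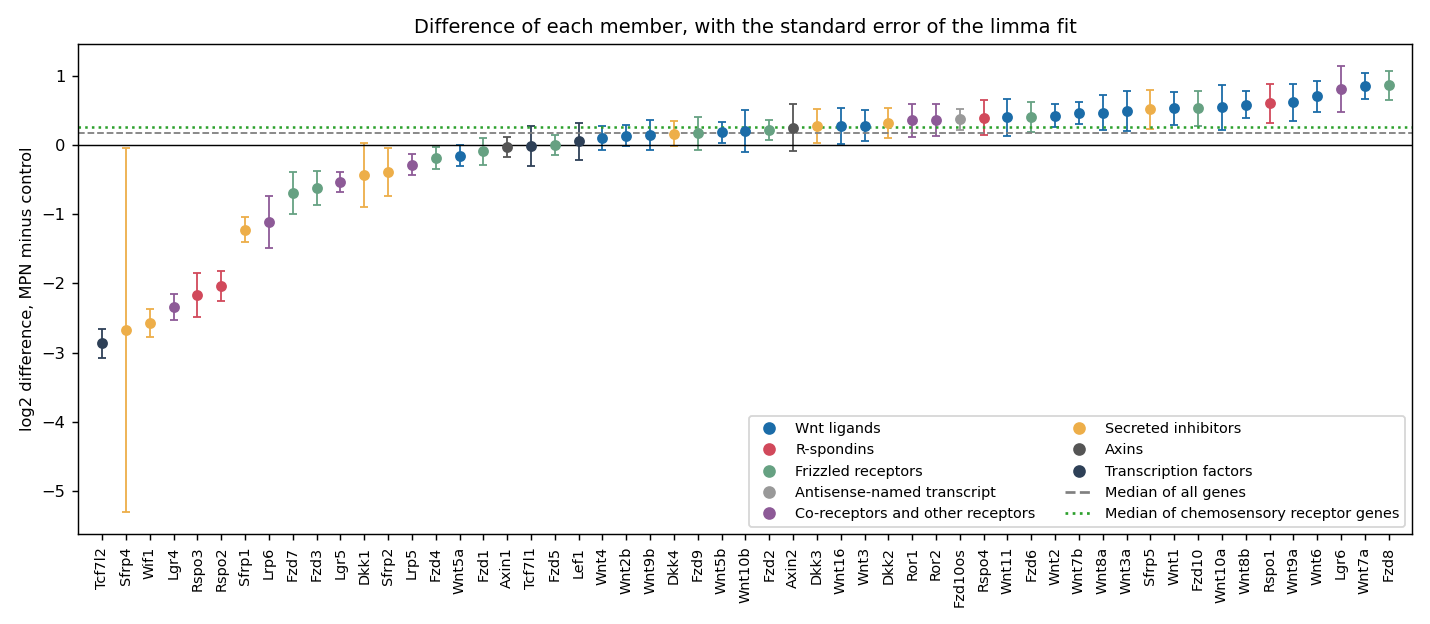
Log2 difference, MPN minus control (vertical axis), of the 55 genes in ascending order, coloured by role, with the standard error of the limma fit as bars and the medians of all genes and of the chemosensory receptor genes as lines. Tcf7l2, Wif1, Lgr4, Rspo3 and Rspo2 lie between -2.87 and -2.03 with short bars, Sfrp4 has a bar of 2.63, and most ligands lie close to the 2 lines.

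Of the 9 secreted inhibitors, Wif1 and Sfrp1 were 2-fold lower on each MPN array, Sfrp4 differed between the MPN mice, and the other 6 lay within 1 log2 unit of the control. Wif1, which binds Wnt ligands directly, measured 5.41, 5.18 and 5.48 in MPN mice 1, 2 and 3, and 7.92 in the control mouse. The MPN mice lay close to the background limit and the control clearly above it. The difference was -2.57 (SE 0.20), 5.92-fold, with an unadjusted limma p of 0.000569 and an adjusted p of 0.0871. The adjusted p was 0.0486 with the trended and robust prior and between 0.0561 and 0.454 over the other alternatives.

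Sfrp1, a frizzled-like decoy, was at 4.94, 4.8 and 5.02 against 6.15. Again the MPN values lay under background and the control above it, with a difference of -1.22 (SE 0.18, adjusted p = 0.154). Sfrp4, a related decoy known for its part in cortical bone, measured 10.84, 5.18 and 9.52 in MPN mice 1, 2 and 3, and 11.18 in the control mouse. All 3 MPN mice were below the control, MPN mouse 1 by the least, and MPN mouse 2 was just under the background limit. The difference of -2.67 (SE 2.63) did not pass (adjusted p = 0.632). It was -1.0 without MPN mouse 2, -3.83 without MPN mouse 1 and -3.17 without MPN mouse 3.

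In MPN mouse 2 the mesenchymal list had its lowest mean, 5.70 against 6.20 and 6.32 for mice 1 and 3. Not every gene of that list was lowest there, since Col1a2 was at 7.02, 7.78 and 7.75 in MPN mice 1, 2 and 3. The osteoblast lineage list had its highest MPN mean in MPN mouse 2, 6.57 against 6.42 and 6.27. Vpreb1, which B cell precursors express, measured 4.36, 11.26 and 4.8 in MPN mice 1, 2 and 3, and 9.64 in the control mouse. Vpreb1 was above the background limit on the arrays of MPN mouse 2 and the control alone. The mean level of 11 B cell precursor genes, with Vpreb1 among them, was 5.10, 5.72 and 4.85 against 5.31. Cd79b, at 6.09, 6.29 and 6.02 against 5.43, and Igll1, at 5.85, 6.28 and 5.62 against 6.16, varied far less than Vpreb1. The part of these genes in the value of Sfrp4 was not tested.

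Dkk1 blocks Lrp5 and Lrp6, and none of the 4 Dkk genes stood out. Dkk1 was at 5.85, 6.08 and 5.13 against 6.12. The difference was -0.43 (SE 0.47), with MPN mouse 3 the lowest. Dkk2, Dkk3 and Dkk4 differed by 0.32, 0.27 and 0.16, and by 0.06, 0.02 and -0.09 after the receptor shift, and none passed the test. Sfrp2 was lower by -0.39 (SE 0.34) and Sfrp5 higher by 0.51 (SE 0.28), both under background in both groups.

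Inside the cell, the axin scaffolds differed little. Axin1 was at 6.03 in each MPN mouse and 6.06 in the control. Axin2, a feedback target that Wnt signalling induces, was at 5.43, 5.77 and 5.08 against 5.18. Its groups overlapped, and the difference of 0.25 (SE 0.34) was within the spread of the mice.

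Of the transcription factors that carry the signal, Tcf7l2 had the lowest difference of all 55 genes as deposited. Sfrp4 was lower after repeated quantile normalisation (-2.96 against -2.88), without MPN mouse 1 (-3.83 against -2.95) and without MPN mouse 3 (-3.17 against -2.87). Tcf7l2 measured 6.33, 6.01 and 6.19 in MPN mice 1, 2 and 3, and 9.04 in the control mouse. The MPN mice lay close together and each was at least 2.71 below the control, with every array above background. The difference was -2.87 (SE 0.20), 7.30-fold, with an unadjusted limma p of 0.000396 and an adjusted p of 0.0871. It passed at 0.0482 after the chemosensory receptor shift, and over the other alternatives the adjusted p ran from 0.0506 to 0.454. Its relatives did not share the difference. Lef1, which lymphoid precursors express, was at 5.92, 6.24 and 5.75 against 5.92, and Tcf7l1 at 6.10, 6.37 and 5.80 against 6.10. The groups overlapped for both genes, with differences of 0.05 (SE 0.27) and -0.01 (SE 0.29). Whether Tcf7l2 differs from its relatives in its response was not tested.

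**Figure D3:**
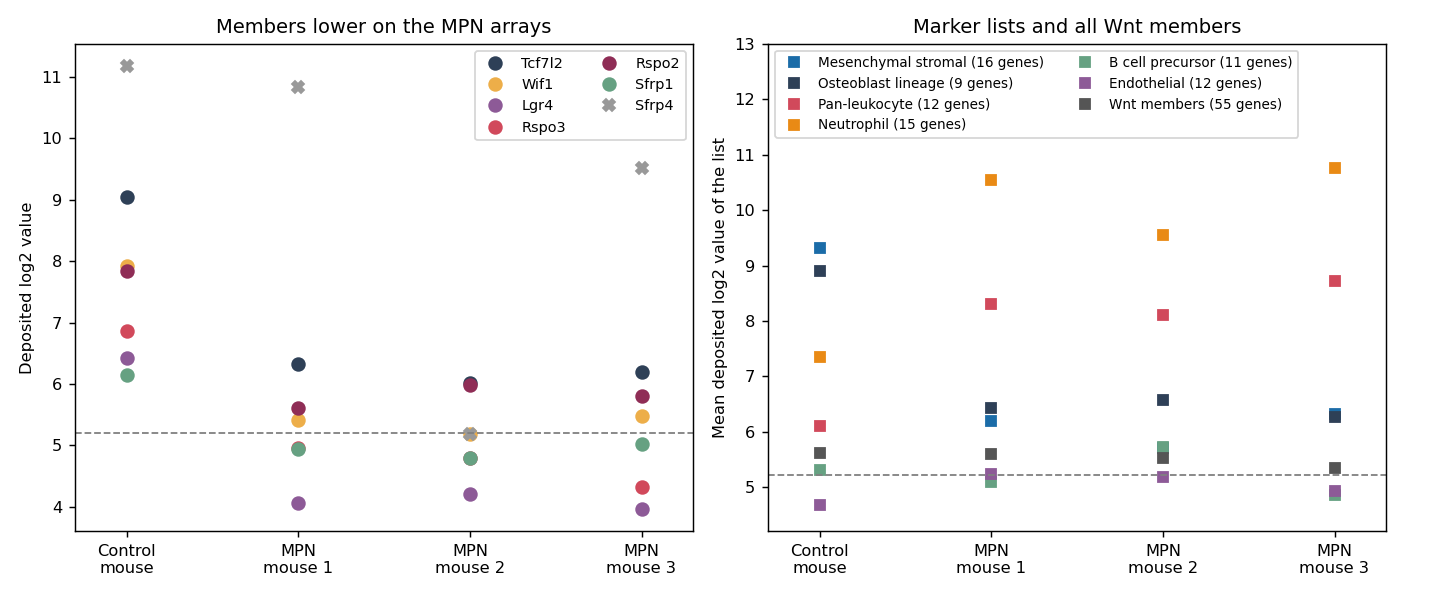
Left, deposited log2 values of the 6 lower members and Sfrp4 (crosses) by mouse. Right, mean log2 value of marker lists and of all 55 Wnt genes by mouse. The dashed line is the background limit. The mesenchymal mean is 9.31 in the control and at most 6.32 in MPN, the pan-leukocyte mean is 6.10 and at least 8.11, and the mean of the Wnt genes is 5.61 in the control and 5.35 to 5.60 in MPN.

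The rest of the pathway was read from 7 lists of 112 genes that are not among the 55, of which 106 had a value. Of these, 14 (13.2%) were at least 2-fold lower on each MPN array and 0 were higher, beside 5.78% and 1.13% of all genes. At an unadjusted limma p under 0.05, 16 of the 106 were lower and 3 higher, beside 8.63% and 3.97% of all genes. After adjustment 0 passed, as over all genes, and the smallest adjusted p was 0.0871. Their median difference was 0.01, beside 0.179 for all genes.

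Of the genes for making and releasing Wnt proteins, Porcn and Wls were lower in the group mean. Porcn, the enzyme that attaches the lipid, was at 5.87, 5.69 and 5.42 against 6.80 (-1.14, SE 0.25). Wls, the carrier that takes Wnt proteins to the cell surface, was at 6.28, 7.01 and 7.44 against 7.88, a wider spread between mice. Notum, which removes the lipid, was higher by 0.20. In this list of 3 genes 0 met the 2-fold rule, and 1 did after cyclic loess, after the receptor shift or without MPN mouse 1.

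Among 12 measured inhibitors outside the 55, Igfbp4, an IGF-binding protein that also restrains Wnt receptors, was the 1 gene 2-fold lower on each MPN array, at 6.55, 6.07 and 6.98 against 8.66. Sost, the osteocyte inhibitor sclerostin, was higher by 0.63 (SE 0.32) and Dkkl1 by 0.73 (SE 0.24). Of 16 genes for receptor turnover and other receptors, 3 were 2-fold lower. Ryk, an atypical Wnt receptor, was at 4.99, 5.19 and 5.79 against 7.88. Tspan12, a partner of Fzd4, was at 4.85, 4.56 and 4.27 against 7.08, and Gpc4, a glypican that binds Wnt proteins, at 5.72, 5.23 and 5.59 against 7.90. The MPN values of Tspan12 and some of Ryk lay under the background limit, so the sizes of these differences are limited by background. Znrf3 and Rnf43, the ligases that R-spondins hold in check, lay close to the background limit and differed by -0.15 and 0.44.

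Of 18 genes of the dishevelled and destruction complex group, 2 were 2-fold lower. Btrc, the ubiquitin ligase subunit that recognises beta-catenin, was at 5.38, 5.10 and 5.13 against 6.56, and Tnks2, a tankyrase that limits axin, at 6.55, 7.62 and 7.83 against 8.91. Csnk1g1, a casein kinase, was lower in the mean by -1.53 (SE 0.87) with a wide spread between mice. Of 16 nuclear effectors, 2 were 2-fold lower. Ctnnb1, beta-catenin itself, was at 6.95, 6.57 and 7.20 against 9.01 (-2.10, SE 0.32, adjusted p = 0.166), and Crebbp, a co-activator, at 6.54, 6.69 and 8.08 against 9.33. Tbl1x was at 5.38, 7.36 and 6.65 against 8.06. The nuclear count was 4 after the chemosensory receptor shift.

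Of 25 feedback and target genes, 4 were 2-fold lower and 0 higher. Gja1, the gap junction protein connexin 43 of osteoblasts and stroma, was at 7.38, 7.30 and 7.20 against 10.15 (-2.86, SE 0.17, adjusted p = 0.0871 with limma). Ccnd1, the cyclin D1 gene, was at 5.77, 5.54 and 5.82 against 7.58. Tnfrsf19 was at 6.07, 6.47 and 5.95 against 7.93. Both were picked with their values in view. Dact1, an antagonist of dishevelled, was at 5.07, 5.07 and 5.68 against 7.43. Of the 25 genes, 9 were below the control on each MPN array and 11 above it, beside 21.1% and 46.8% of all genes. Myc was among the 9 below, at 4.66, 6.89 and 6.18 against 7.58 (-1.67, SE 1.02). The feedback genes Nkd1 and Sp5 had differences of 0.37 and 0.30. In the planar polarity and calcium list of 20 genes, 2 were 2-fold lower, Daam2 (5.18, 4.51 and 4.68 against 7.02) and Camk2d (5.72, 5.23 and 5.45 against 7.03), and Mapk9 lay at -1.06 (SE 0.33).

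**Figure D4:**
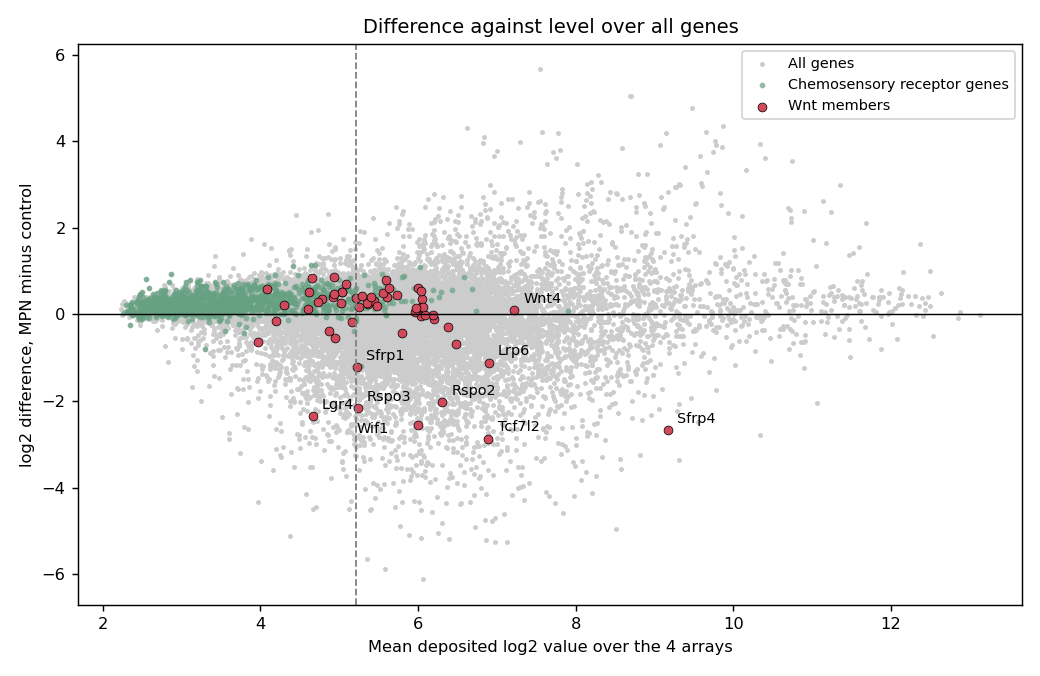
Log2 difference, MPN minus control (vertical axis), against the mean deposited log2 value over the 4 arrays for all 19938 genes, with chemosensory receptor genes in green, the 55 Wnt genes in red and the background limit dashed. Most Wnt genes lie near the limit with differences a little above 0, like the green points. The named ones other than Wnt4 lie below 0.

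The differences of the lower genes kept their sign under every alternative run. Those of Tcf7l2 ran from -3.12 to -2.79, of Wif1 from -2.82 to -2.37, of Lgr4 from -2.60 to -2.21, of Rspo3 from -2.42 to -1.96, of Rspo2 from -2.29 to -1.81 and of Sfrp1 from -1.48 to -1.13. The number of members 2-fold lower on each MPN array was between 5 and 7. On the other side, 17 of the 55 members (30.9%, beside 21.1% of all genes) were below the control on each MPN array, and 9 lay on both sides of it.

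**Figure D5:**
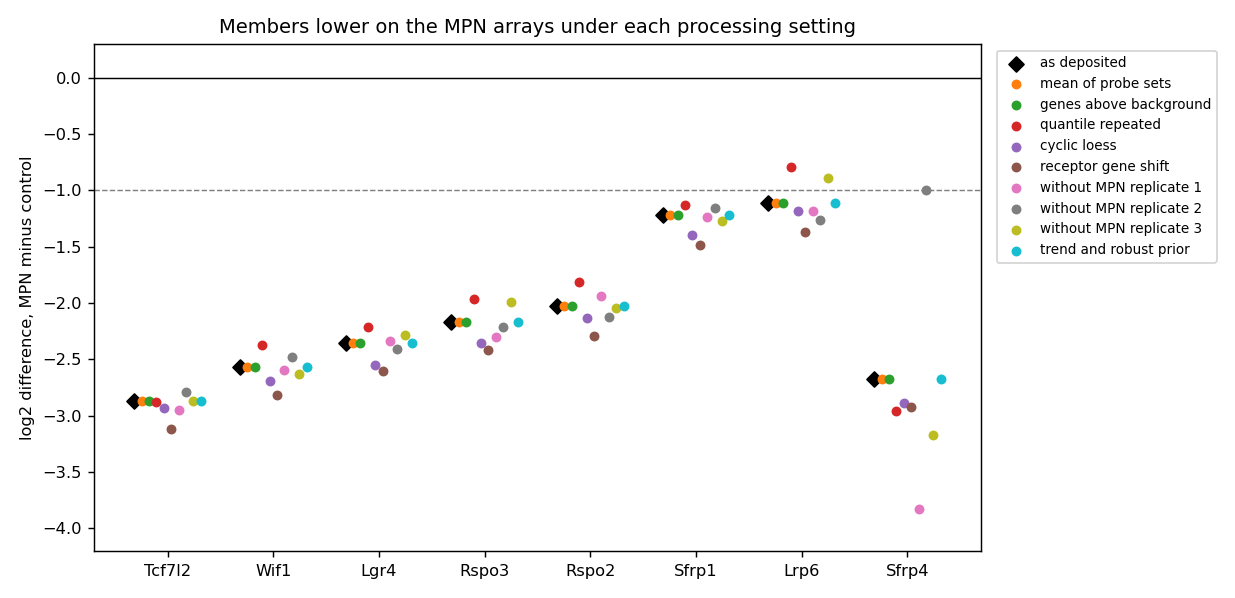
Log2 difference, MPN minus control (vertical axis), of 8 lower members under each processing setting, with the deposited values as black diamonds and a line at -1. The genes Tcf7l2, Wif1, Lgr4, Rspo3, Rspo2 and Sfrp1 stay below -1 in each setting. Lrp6 ran from -1.37 to -0.79 and Sfrp4 from -3.83 to -1.0.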

How the data were processed

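Expression was measured in marrow cells sorted as Nes-GFP+ stroma, per the labels, from 3 MPN mice and 1 control mouse; the marker values that go against that label on the MPN arrays stand in the results. Per the labels, RNA was isolated with a Picopure kit, and the design text names NuGEN Ovation amplification. The deposited values are log2 values made by the authors with RMA, per the submitters' processing notes. RMA corrects background, brings the arrays to one distribution and summarises probes, which compresses differences near background. The RMA version and the genome build were not given in the sources used here. The deposited values ran from 1.55 to 13.63, and array data have no read depth, so the number of arrays limits the precision.

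Of 35556 probe sets, 21789 had 1 gene symbol in the platform table and 1621 had several, which were left out. The probe set with the highest mean over the 4 arrays stood for its gene. The background limit is the 95th percentile of the means of 1194 olfactory and vomeronasal receptor genes. One model over all genes was fitted by lmFit and eBayes of limma 3.58.1 (R 4.3.3; two-sided tests, prior of 1.39 degrees of freedom), with Benjamini-Hochberg adjustment over 19938 genes and a threshold of 0.05. A gene was also described as 2-fold apart where each MPN array differed from the control by at least 1 log2 unit in one direction. p-values rest on the spread of the MPN arrays. The steps were tested on simulated data.

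Members were named with values on every array where they met the 2-fold rule or an unadjusted p under 0.05 above background, or had the highest mean of their role. Of each pathway list, up to 3 genes with the largest difference above background were named. A few others were added after their values were seen, to show how members of a role differ. The members and lists were chosen with earlier results of these data known. Promoter windows and gene neighbours came from RefSeq tables of GRCm38.p6. The alternatives averaged probe sets, removed dim genes, repeated quantile normalisation, used cyclic loess, moved each array so that the receptor genes had the same median, took a trended and robust prior, or left out each MPN mouse.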

Additional observations from a re-analysis of the deposited data

How the results depend on the processing

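The count of all genes past the adjusted threshold, 0 as deposited, was 93 lower and 4 higher after cyclic loess, 146 and 7 after the chemosensory receptor shift, and 166 and 1 with the trended and robust prior. Among the Wnt genes these settings gave 1, 2 and 2 lower. They were Lgr4 each time, joined by Tcf7l2 after the shift and by Wif1 with the other prior. With 1 MPN mouse left out, the count of all genes 2-fold higher was 373 to 378 instead of 225, and the count 2-fold lower was 1312 to 1756 instead of 1153, with the highest without MPN mouse 3. The count of Wnt genes higher at an unadjusted limma p under 0.05 was 0 among genes above background and 1 to 7 with a mouse left out. Over all genes it was 351 of the 11966 above background, and 424 to 1791 of 19938 with a mouse left out. The median difference of the Wnt genes was 0.0483 after cyclic loess and turned to -0.052 after the receptor shift, where the median of all genes was -0.0778 and 10 of the 55 genes changed sign. The cause of these changes was not tested. Axin1 was at 0.091 after repeated quantile normalisation, and Wnt4 at -0.16 after the receptor shift, both with a turned sign. No paired analysis was possible because there was 1 control mouse and no label pairs it with an MPN mouse. With 1 control and 24 of 55 genes above background in both groups, small differences could not be told from the spread of the mice.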
